A study of Mus musculus with 8 samples.

Results

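The regions described here are the sites of open chromatin in bone marrow-derived macrophages (BMDMs) that were found at vehicle (Veh) and in neither treated condition. They come from ATAC-seq, which uses a transposase to tag accessible DNA with adapters for sequencing, of WT C57BL/6 BMDMs at Veh, after 6 h of KLA (Kdo2-lipid A, a TLR4 agonist) and after the combination of RGFP966, an HDAC3 inhibitor, with KLA. The authors called a set of IDR peaks (peaks that rank alike in a pair of libraries) for each condition and merged the 3 sets into 9698 peaks. Of these, 4743 were in the Veh set and 800 were in the Veh set alone, and these 800 Veh-only peaks are the members. The other peaks of the Veh set were 292 shared with the KLA set, 898 shared with the RGFP966 + KLA set and 2753 shared with both.

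The mice were 8 to 12 weeks old, and KLA was given at 100 ng/mL after 12 h of serum starvation. RGFP966 was added with the starvation, at a concentration that the methods write as 5 mM, and there was no group with RGFP966 alone. The titles of the third pair of libraries name RGFP966 while their treatment entry names only KLA, and they are taken here as RGFP966 + KLA. A further pair of libraries, at Veh for 6 h, came from BMDMs labelled NCoR1 flox/flox (NCoR f/f), with no Cre named, and was counted on its own table of 24867 peaks. The column headers give this pair the same strain as the WT libraries, C57BL/6, and a different library code, whose meaning is not stated. Each condition had 2 libraries, and no source used here says whether they came from separate mice or cultures, so the spread between them may be technical.

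The WT libraries held 116733 to 202523 tags in peaks, which was 1.40 to 2.06% of their tags, and the NCoR f/f libraries held 372367 and 509741. A member had a median of 12 and 11 tags in the Veh libraries, so each value below rests on few tags. Of 12 macrophage markers, 7 had at least 1 merged peak assigned to them, and Spi1, Adgre1, Lyz2, Mertk and Cd14 had none. Markers of T cells, B cells and neutrophils had no merged peak (0 of 4 each), 1 of 4 fibroblast and 1 of 3 erythroid markers had one, and all 3 dendritic cell markers (Flt3, Zbtb46 and Xcr1) did. The summed level at the dendritic cell markers was 2147 to 2637 tags per 10000000 tags in peaks in the Veh libraries and 1481 to 1970 in the other 4, and at the macrophage markers 10734 to 10857 and 6511 to 9332. Of the dendritic cell markers' peaks 2 are members, and 1 of the macrophage markers' peaks is, so the choice of members bears on both sums. The sum at the fibroblast marker was 776 and 908 at Veh, 1016 and 1114 at KLA, and 741 and 721 at RGFP966 + KLA, and at the erythroid marker it was 1318 and 1817, 2353 and 1542, and 1827 and 1957. The part of such cells in the results was not tested.

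In macrophages, the lineage factor PU.1 opens enhancers together with C/EBP, AP-1 and RUNX factors, and this landscape is present before any stimulus. TLR4 signaling then brings NFkB and further AP-1 factors to DNA, and additional sites open while others close. HDAC3 is the histone deacetylase of the NCoR complex, a corepressor that macrophages use both to silence and, after TLR4 signaling, to activate genes. A peak is named below by the gene with the nearest TSS in the authors' table, which does not say that the site controls that gene.

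Sequences of 200 bp at the peak center (mm10, plus strand, 5′ to 3′) are shown first for the 3 promoter members (within 2 kb of a TSS) with the highest Veh level. Capitals mark matches, on either strand, to 1 of 12 consensus motifs. Klf10 (chr15:38300857-38301056) and Stk11 (chr10:80115488-80115687) lie 245 and 216 bp upstream of the TSS, and Mnt (chr11:74832119-74832318) lies in an intron 1294 bp downstream of it. All 3 hold the SP/KLF box GGGCGG or its complement, and Klf10 also holds an NFkB-p65 match, the first run of capitals in it.
Klf10: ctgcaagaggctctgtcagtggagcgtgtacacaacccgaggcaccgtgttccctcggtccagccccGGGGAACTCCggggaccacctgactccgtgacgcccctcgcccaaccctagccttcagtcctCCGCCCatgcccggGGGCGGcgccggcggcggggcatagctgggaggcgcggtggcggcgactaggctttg
Mnt: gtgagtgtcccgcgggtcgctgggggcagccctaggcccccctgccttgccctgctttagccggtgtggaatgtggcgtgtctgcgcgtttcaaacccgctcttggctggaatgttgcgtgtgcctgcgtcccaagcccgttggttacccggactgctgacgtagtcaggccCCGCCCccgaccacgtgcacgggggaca
Stk11: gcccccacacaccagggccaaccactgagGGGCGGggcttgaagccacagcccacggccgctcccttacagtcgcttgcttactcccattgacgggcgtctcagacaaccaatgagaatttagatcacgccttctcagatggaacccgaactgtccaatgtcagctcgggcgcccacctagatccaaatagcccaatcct

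Sequences are shown next for 2 of the 3 distal members with the highest Veh level. The peak nearest Mir148a (chr6:51178392-51178591) is intergenic at 91419 bp from the TSS and holds no match. The peak nearest Naa20 (chr2:145888545-145888744), 14597 bp upstream, holds 1 C/EBP match (TTGCNNAA).
Mir148a: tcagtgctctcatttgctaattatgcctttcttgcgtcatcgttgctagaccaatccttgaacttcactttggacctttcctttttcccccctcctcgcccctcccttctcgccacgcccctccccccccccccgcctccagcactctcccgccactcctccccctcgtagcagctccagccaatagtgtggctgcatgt
Naa20: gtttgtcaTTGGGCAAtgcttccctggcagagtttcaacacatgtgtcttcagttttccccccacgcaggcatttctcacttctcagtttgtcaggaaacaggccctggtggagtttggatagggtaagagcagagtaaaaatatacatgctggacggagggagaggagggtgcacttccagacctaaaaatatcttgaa

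The highest member with a PU.1 match (GAGGAAGT) was also the highest with an AP-1 match (TGACTCA). It lies in an intron 52422 bp from the TSS of 2510009E07Rik (chr16:21642144-21642343), and the AP-1 match precedes the PU.1 match. A member with a CTCF match is the peak in an intron of Fam214b (chr4:43045869-43046068), 252 bp from the TSS, where the CTCF match shares bases with an SP/KLF match.
2510009E07Rik: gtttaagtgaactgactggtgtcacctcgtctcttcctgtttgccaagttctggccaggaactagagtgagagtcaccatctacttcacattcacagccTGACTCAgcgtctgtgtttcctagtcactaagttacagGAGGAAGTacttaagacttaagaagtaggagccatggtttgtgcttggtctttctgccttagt
Fam214b: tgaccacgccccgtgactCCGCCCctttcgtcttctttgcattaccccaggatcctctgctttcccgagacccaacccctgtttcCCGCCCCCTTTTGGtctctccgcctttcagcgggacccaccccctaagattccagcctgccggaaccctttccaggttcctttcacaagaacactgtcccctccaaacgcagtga

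The Veh-only peaks were lower in both treated conditions by a similar amount. Levels are tags per 10000000 tags in peaks. Their median level was 931 and 908 at Veh, 535 and 514 at KLA, and 494 and 463 at RGFP966 + KLA, per library. Both Veh medians thus lay above all 4 others, while over all merged peaks the 6 medians lay between 826 and 875. The 800 peaks took 7.86 and 7.76% of the tags in peaks at Veh and 3.99 to 4.53% in the treated libraries. These libraries chose the members, so the difference is a description of the choice and carries no test. In such bulk samples, fewer cells with an open site and less access per cell cannot be told apart.

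**Figure D1:**
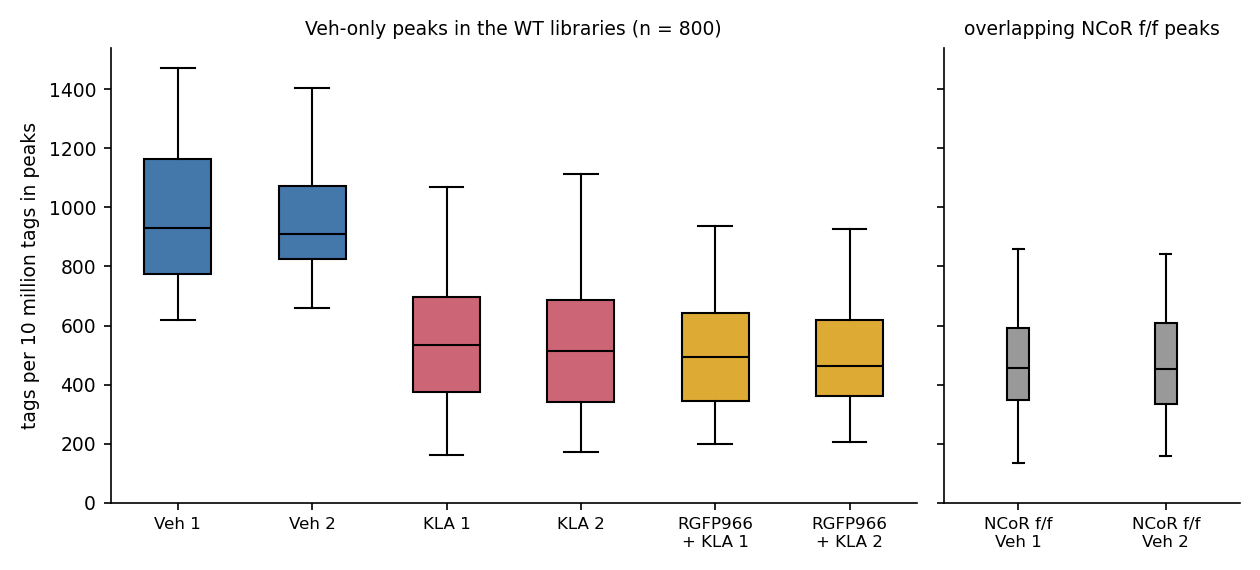
Levels of the 800 Veh-only peaks in each WT library (left) and at the overlapping NCoR f/f peaks (right), in tags per 10000000 tags in peaks, where boxes span the quartiles with the median as a line and whiskers run from the 5th to the 95th percentile. The median is 931 and 908 at Veh and between 463 and 535 in the treated libraries, and NCoR f/f levels are scaled to another set of peaks and are not comparable with the left panel.

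All 800 members passed the filter of 4 tags in at least 1 library, and edgeR was fitted across all 9698 merged peaks (called at an adjusted p under 0.05 and a fold change over 2). For KLA against Veh, 99 members were called lower, where 1.73% of all merged peaks were called lower. The rule used this contrast, so nothing is read from the difference between these shares. No member was called higher by edgeR, where 3.30% of all peaks were, and 0 members were higher at an unadjusted p under 0.05. DESeq2 called 0 members in either direction, with 111 lower and 0 higher at an unadjusted p under 0.05. Without KLA library 1, KLA library 2, Veh library 1 or Veh library 2, edgeR called 30, 61, 34 and 39 members lower.

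For RGFP966 + KLA against Veh, 205 members were called lower and 0 higher, beside 2.99% and 6.89% of all merged peaks. No member was higher at an unadjusted p under 0.05, and DESeq2 called 0 in either direction, with 156 members lower at that p. Without RGFP966 + KLA library 1 or 2, or Veh library 1 or 2, edgeR called 70, 61, 62 and 86 members lower. Against Veh, the fitted median log2 fold change over the members was -0.81 for KLA and -0.94 for RGFP966 + KLA, while over all merged peaks it was 0.02 and 0.04. These 2 comparisons share the Veh libraries. In both comparisons 71 members were called lower, beside 0.846% of all merged peaks. Another 28 were called in KLA alone and 134 in RGFP966 + KLA alone, and 567 were called in neither. Of all 9698 merged peaks, 168 were called lower for KLA, 290 for RGFP966 + KLA and 82 in both. The rule used these libraries, so nothing is read from the counts.

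Counted by libraries, 602 members had both Veh libraries above both KLA libraries, beside 22.6% of all merged peaks. For 543 members both Veh libraries lay above all 4 treated libraries, beside 14.0% (460 members when scaled to all tags), and 3 members had both below both KLA libraries, beside 25.3%. At the median member, Veh library 1 was 1.02 times Veh library 2, with quartiles of 0.805 and 1.25. The median member held 23 tags over both Veh libraries, for which counting error alone is 20.9%.

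The 10 members with the highest Veh level were led by Klf10, a zinc finger factor of the TGF-beta response. Its promoter peak (chr15:38300706-38301206, shown above) had 43 and 29 tags at Veh, 19 and 16 at KLA, and 29 and 24 at RGFP966 + KLA. Scaled to tags in peaks, both Veh libraries lay above the other 4, and the fitted log2 fold changes were -1.31 ± 0.30 (SE) for KLA and -1.10 ± 0.27 for RGFP966 + KLA against Veh. A second member in its intron (chr15:38298922-38299157) had 22 and 15, 16 and 9, and 19 and 12 tags, and was called in neither comparison.

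Mir148a encodes a microRNA, and the distal peak nearest it had 20 and 32 tags at Veh, 21 and 7 at KLA, and 17 and 14 at RGFP966 + KLA (log2 fold change -1.17 ± 0.34 for KLA against Veh). Mnt, a MAX partner that opposes MYC, had 36 and 15, 14 and 5, and 16 and 11 tags in the same order (-1.69 ± 0.38). At both peaks the 2 Veh libraries differed widely and still lay above the treated ones. Naa20 encodes the catalytic subunit of an N-terminal acetyltransferase, and the peak 14597 bp upstream had 28 and 19, 10 and 8, and 6 and 13 tags (-1.65 ± 0.38). It was the member of these 10 with the lowest value in RGFP966 + KLA against Veh (-1.96 ± 0.37).

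Signaling genes were among the others. Gng2, a G protein gamma subunit, had 26 and 17 tags at Veh, 14 and 6 at KLA, and 12 and 14 at RGFP966 + KLA, with both Veh libraries on top after scaling. Arhgap25, which switches off Rac in blood cells, had 18 and 26, 11 and 9, and 15 and 10 tags at its highest member. Stk11, the kinase that activates AMPK, had 24 and 23, 30 and 11, and 12 and 25 tags, so its treated replicates lay far apart, and the peak was called lower only for RGFP966 + KLA. Ndst1, an enzyme of heparan sulfate synthesis, had 19 and 23, 13 and 5, and 20 and 11 tags, and both treated pairs lay below Veh after scaling.

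The last pair of the 10 was called in neither comparison. Egr3, an immediate-early zinc finger factor, had 33 and 17 tags at Veh, 27 and 17 at KLA, and 24 and 17 at RGFP966 + KLA. Its levels in the Veh libraries, 2559 and 1404, enclosed those at KLA, 1444 and 1456. Manea, a Golgi mannosidase, had 23 and 19, 19 and 17, and 28 and 21 tags, with both Veh libraries narrowly above the other 4 when scaled to tags in peaks. Of the 10 members, 7 were called lower for KLA, 8 for RGFP966 + KLA, and 9 had both Veh libraries on top. Scaled to all tags instead, 7 had both on top, since at Manea and Stk11 a treated library then lay above Veh library 2.

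**Figure D2:**
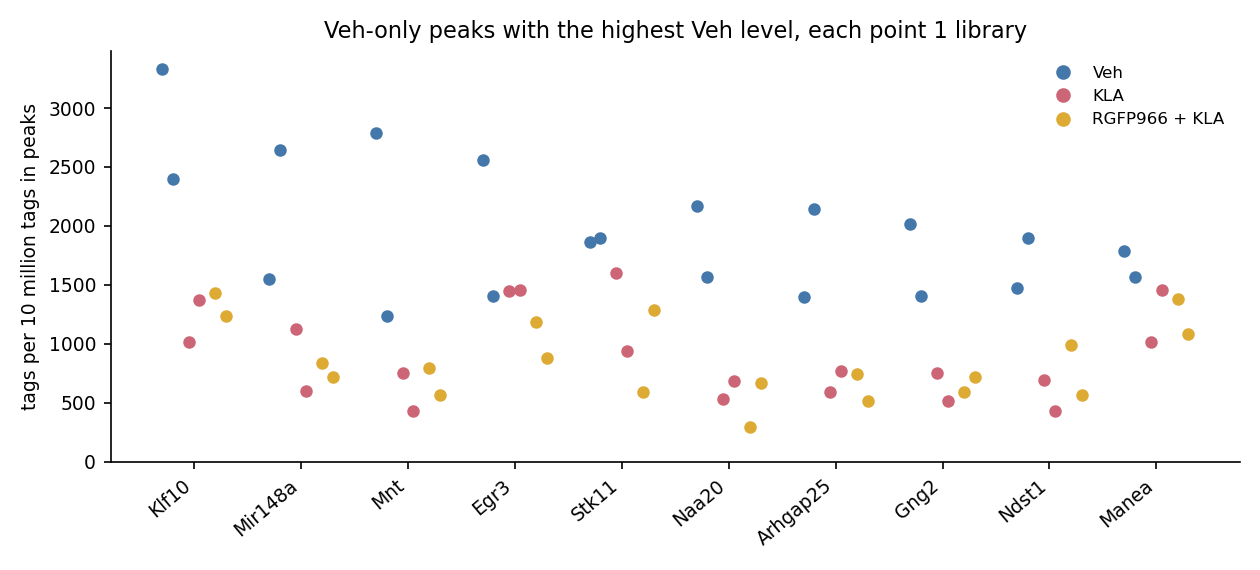
Levels of the 10 Veh-only peaks with the highest mean Veh level, in tags per 10000000 tags in peaks, with 1 point per library. On this scale both Veh libraries lie above the other 4 at 9 of the 10 peaks (7 when scaled to all tags), and at Egr3 the KLA libraries lie between the 2 Veh libraries.

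Among the 392 members with a mean of at least 12 tags at Veh, the lowest KLA values were at Vsir and St6gal1. Vsir encodes VISTA, an immune checkpoint protein of myeloid cells, and its intronic peak (chr10:60362232-60362558) had 12 and 13 tags at Veh, 0 and 2 at KLA, and 3 and 6 at RGFP966 + KLA. With 2 tags over both KLA libraries, Veh was 15.2 times KLA with an exact counting interval at 95% of 3.79 to 132. St6gal1, which adds sialic acid to glycans, had 15 and 18, 3 and 0, and 4 and 4 tags at an upstream peak (chr16:23279923-23280124), a ratio of 13.4 (4.19 to 68.1). The 5 lowest peaks were picked by these values among members that the same libraries chose. The ratios and intervals do not allow for that choice and carry no test. The St6gal1 peak was the one of these 5 that overlapped no NCoR f/f peak set.

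Nuak1, a kinase related to AMPK, had 10 and 16 tags at Veh, 2 and 1 at KLA, and 5 and 5 at RGFP966 + KLA at its promoter. Gnai2, an inhibitory G protein alpha subunit, had 14 and 11, 1 and 2, and 11 and 6 tags at a peak 4935 bp upstream, and 1110034G24Rik had 27 and 10, 2 and 4, and 6 and 3 tags in an intron. Of these 5 peaks, 4 were called lower in both comparisons, and Gnai2 was called lower only for KLA. The difference between the treated conditions at Gnai2 was not called (RGFP966 + KLA against KLA, log2 fold change 2.03 ± 0.71).

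At the other end, 23 members had a mean KLA level at or above their Veh level. The promoter of Fyco1, an adaptor for autophagosome transport, had 15 and 12 tags at Veh, 22 and 14 at KLA, and 16 and 23 at RGFP966 + KLA (0.13 ± 0.36 for KLA against Veh). Hbp1, an HMG-box repressor, had 11 and 13, 23 and 9, and 13 and 14 tags. Rps6ka5, which encodes the kinase MSK1 that acts downstream of MAP kinases, had 22 and 17, 35 and 17, and 18 and 34 tags at its promoter. P4ha2, a collagen prolyl hydroxylase, had 15 and 22, 27 and 21, and 20 and 24 tags at a peak 39557 bp from its TSS, and a peak on an unplaced contig had 16 and 10, 20 and 14, and 11 and 25. At 4 of these 5 peaks the KLA and Veh levels overlapped, and at Fyco1 both KLA libraries lay just above both Veh libraries on the scale of tags in peaks.

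The edge of the KLA set was examined in levels. Members had KLA levels from 80.2 to 1664 (median 540), and the 292 peaks shared by the Veh and KLA sets had 663 to 7182 (median 1049). Outside the KLA set, Rps6ka5, P4ha2 and Egr3 had the highest KLA levels of the members, at 1664, 1621 and 1450. Inside it, the peaks nearest Trim36 and Ccdc30 had the lowest KLA levels of the shared peaks, at 663 and 690. A total of 28 members had a KLA level at or above the median of the shared peaks, and no shared peak lay at or below the median of the members (0 of 292). No member was at 0 tags in both KLA libraries or in both RGFP966 + KLA libraries (0 of 800 each), and 22 had at most 3 tags in each KLA library.

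**Figure D3:**
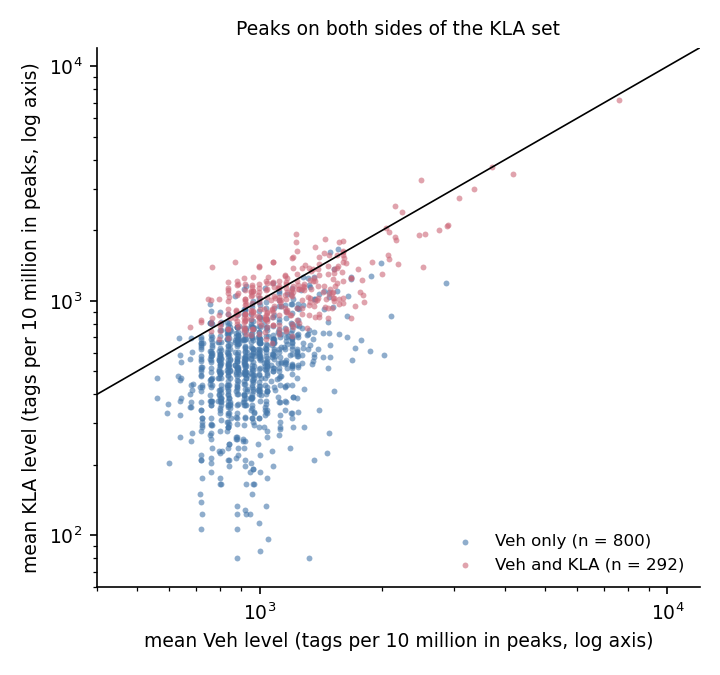
Mean Veh level against mean KLA level, in tags per 10000000 tags in peaks on log axes, for the 800 Veh-only peaks and the 292 peaks shared by the Veh and KLA sets, with the line of equal levels. Veh-only peaks reach KLA levels of 1664 while shared peaks begin at 663, so the classes overlap in this range.

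RGFP966 + KLA was then compared with KLA at the members. The median log2 fold change of RGFP966 + KLA against KLA was -0.11 over the members and 0.03 over all merged peaks, and with library sizes from all tags it was 0.06 and 0.21, so its sign depends on the scaling. A single member (1 of 800) was called lower, where 0.103% of all merged peaks were, and 0 were called higher by edgeR, where 0.237% were. At an unadjusted p under 0.05, 43 members were lower and 19 higher, and DESeq2 called 0, with 11 lower and 0 higher at that p. The called member lies in an intron 4032 bp from the TSS of Cd83 (chr13:43789042-43789246), a surface protein of activated antigen-presenting cells. It had 12 and 16 tags at Veh, 19 and 5 at KLA, and 2 and 2 at RGFP966 + KLA. Its KLA levels, 1016 and 428, lay on both sides of the lower Veh level, and the call was lost without KLA library 1 or either RGFP966 + KLA library, where no member was called.

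Genes of 11 lists written for macrophages and this treatment were assigned 39 members at 36 genes. These members made up 11.7% of the 332 merged peaks of the lists, where 8.25% of all merged peaks were members. Macrophage lineage factors held 10 members of 59 merged peaks, at 10 genes. None of the 10 was called lower for KLA and 4 were for RGFP966 + KLA, beside 12.4% and 25.6% of all members and the 1.73% and 2.99% of all merged peaks given above. Their median log2 fold changes were -0.68 and -0.95, near the members' -0.81 and -0.94, so nothing is read from these values about the list. The lists that follow held at most 9 members each. Their calls stand beside the same shares, and nothing is read from them either.

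Those 4 were at Egr1, Fli1, Klf4 and Mitf. The distal peak nearest Klf4, a Krüppel-like factor of monocyte differentiation, had 11 and 11 tags at Veh, 10 and 6 at KLA, and 2 and 3 at RGFP966 + KLA, and the last pair lay below the other 4 libraries. Mitf, the MiT-family factor also needed in osteoclasts, had 14 and 12, 9 and 8, and 8 and 5 tags in an intron. Egr1, an immediate-early factor induced with monocyte differentiation, had 12 and 12, 10 and 5, and 9 and 5 tags, and Fli1, an ETS factor of blood cells, had 15 and 10, 5 and 7, and 6 and 8. For the other 6 (Cebpb, Egr3, Klf6, Mef2a, Tfe3 and Tfec) no call was made. Cebpb, a C/EBP factor of macrophages, had 16 and 16, 17 and 19, and 19 and 23 tags at its promoter, which gave a fitted log2 fold change of -0.11 ± 0.35 for KLA against Veh. Tfe3, another MiT-family factor, had 20 and 8, 11 and 4, and 10 and 13 tags at its promoter.

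Macrophage receptors held 4 members of 17 merged peaks. Axl, a TAM-family receptor for the clearance of dying cells, had 17 and 14 tags at Veh, 8 and 4 at KLA, and 3 and 13 at RGFP966 + KLA in an intron, and was called lower in both comparisons. C5ar1, the receptor of complement C5a, had 15 and 14, 13 and 5, and 11 and 6 tags at its promoter and was called lower for RGFP966 + KLA. Neither Ptprc (CD45, 15 and 11, 18 and 4, and 24 and 8 tags) nor Fcgr1 (an Fc gamma receptor, 14 and 10, 17 and 8, and 11 and 9 tags) was called, and at both the KLA levels overlapped the Veh levels.

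GTPase regulators of the cytoskeleton held 9 members of 56 merged peaks at 7 genes, of which 2 were called lower in each comparison, and both were at Arhgap25. This gene had 3 merged peaks and all 3 were members. The peak at chr6:87502902-87503202, given above, is annotated 6725 bp upstream of a TSS of this gene. The peak at chr6:87541066-87541399, annotated 7973 bp upstream, had 14 and 14 tags at Veh, 9 and 3 at KLA, and 6 and 6 at RGFP966 + KLA. By their coordinates these peaks lie too far apart for both distances to be from the same TSS. The third (chr6:87542018-87542259), with 8 and 11, 8 and 6, and 9 and 10 tags, was not called. Arhgap45 had 13 and 9, 8 and 0, and 8 and 9 tags at its promoter, with the 2 KLA libraries far apart.

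The TLR4 pathway held 4 members of 28 merged peaks, none of them called. Of all members 12.4% were called lower for KLA and 25.6% for RGFP966 + KLA, so nothing is read from 0 calls among 4. Tbk1, a kinase of the interferon branch, had 13 and 18 tags at Veh, 25 and 6 at KLA, and 10 and 12 at RGFP966 + KLA. Mapk8 (JNK1) had 14 and 11, 18 and 10, and 8 and 10 tags, and Mapk14 (p38 alpha) had 10 and 14, 11 and 6, and 7 and 9 tags. The member at Ikbke, a kinase related to Tbk1, had 14 and 10, 9 and 10, and 16 and 9. Among 34 merged peaks of inflammatory response genes, 1 was a member, the distal peak nearest Nfkbiz (IkB-zeta), with 12 and 9, 9 and 7, and 10 and 11 tags.

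TGF-beta and SMAD genes held 4 members of 26 merged peaks, at Smad3, Smad4 and Bmpr1a, with no call. The Smad3 promoter (chr9:63758045-63758285) had 13 and 8, 5 and 4, and 9 and 7 tags, and a peak in its intron had 13 and 10, 7 and 6, and 11 and 11, so at both the KLA libraries were the lowest pair. NCoR, HDAC3 and coactivator genes held 2 of 25. Jund, an AP-1 subunit, had 23 and 19, 25 and 14, and 13 and 22 tags in its 5′ UTR, and Tbl1xr1, a subunit of the NCoR complex, had 11 and 9, 4 and 4, and 9 and 6. Cell cycle genes held 2 of 29 (Mki67 and Top2a), lysosome and autophagy genes 2 of 30 (Ctsb and Ctsd), lipid genes 1 of 22 (Plin2, a lipid droplet coat protein, with 9 and 10, 7 and 3, and 11 and 3 tags) and antigen presentation genes 0 of 6. None of these was called, and with so few members per list nothing is read from that.

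By position, 376 of the 794 members with a distance to a TSS lay within 2 kb of it, which is 47.4% (43.9 to 50.8%, Wilson interval). The share was 62.5% (56.9 to 67.9%) for peaks shared by the Veh and KLA sets, 56.9% (53.6 to 60.1%) for those shared with RGFP966 + KLA, 70.3% (68.6 to 72.0%) for those in all 3 sets, and 51.0% over all merged peaks. The authors' annotation placed 311 members in promoters, 270 in introns and 189 between genes, and 8 in exons and 6 in 5′ UTRs. Intronic peaks were 33.8% of the members and 26.2% of all merged peaks. The nearest gene was protein-coding for 715. Members were 239 bp wide at the median and peaks in all 3 sets 308 bp, and GC content at the center was 56.0% and 62.5%. Outside chromosomes 1 to 19, X and Y lay 8 members, of which 6 were annotated in repeats.

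Members near and away from TSSs are given apart. The 376 promoter members had a median log2 fold change of -0.75 for KLA and -0.93 for RGFP966 + KLA against Veh, and the 418 distal members -0.89 and -0.97. The calls for KLA fell on 37 promoter (9.84%) and 62 distal members (14.8%), and for RGFP966 + KLA on 88 (23.4%) and 116 (27.8%). Of all merged peaks, not split by position, 1.73% and 2.99% were called lower. The rule used these contrasts, so nothing is read from the counts. GC content was 65.5% at promoter members and 50.5% at distal ones.

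The members named 736 genes, 52 of them by at least 2 members and 6 by 3. For 418 of these genes every merged peak was a member, and for the other 318 the gene also had a merged peak outside the members. As only 52 genes had 2 or more members, most of the 418 had a single merged peak. A total of 29 pairs of neighbouring members lay under 10 kb apart. Beside Arhgap25, the genes with 3 members were Dhrs3, E030018B13Rik, Gm5122, Mroh2a and P4ha2. At P4ha2 the 3 peaks went different ways, since the peak in its intron (9 and 11 tags at Veh, 3 and 2 at KLA, 4 and 9 at RGFP966 + KLA) was called lower for KLA while the distal peak described above was not.

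The NCoR f/f libraries took no part in the choice of the members. Of the 800 members, 96.0% (94.4 to 97.2%) overlapped any NCoR f/f peak by at least 1 bp and 83.0% (80.2 to 85.4%) a peak of its Veh set, close to the 95.1% and 78.3% of all merged peaks. For the peaks shared with KLA, with RGFP966 + KLA and with both, the share in the NCoR f/f Veh set was 92.8% (89.3 to 95.3%), 95.2% (93.6 to 96.4%) and 96.7% (96.0 to 97.3%). The median level at the members was 457 and 451 in the 2 NCoR f/f libraries, against 564 and 589, 564 and 589, and 779 and 804 for the same 3 classes. The median at the members was thus below those of the other peaks of the WT Veh set, as in the WT libraries (927 against 1158, 1118 and 1482).

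The NCoR f/f table also lists which of its peaks were in a KLA set, made from libraries not analysed here. Of the members, 529 overlapped both NCoR f/f sets, 135 the Veh set and not the KLA set, 73 the KLA set and not the Veh set, and 63 neither. Thus 135 of the 664 members in the NCoR f/f Veh set, or 20.3% (17.4 to 23.6%), had no counterpart in its KLA set. The share was 10 of 271 (3.69%) for peaks shared by the WT Veh and KLA sets, 58 of 855 (6.78%) for those shared with RGFP966 + KLA and 56 of 2663 (2.10%) for those in all 3 sets, and 3.27% (2.75 to 3.89%) over these 3789 peaks. It was 8.55% for KLA-only peaks, 13.1% for RGFP966 + KLA-only peaks and 7.31% (555 of 7589) over all merged peaks.

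This share also moved with the NCoR f/f level. At levels under 400 it was 35.3% (28.8 to 42.5%, 65 of 184) for members and 12.3% (8.17 to 18.04%, 21 of 171) for the other Veh peaks. Between 400 and 600 it was 18.8% (14.8 to 23.6%) and 4.63% (3.49 to 6.12%), and between 600 and 800 it was 8.22% (4.76 to 13.8%) and 1.83% (1.20 to 2.78%). At 800 or more it was 2 of 36 members and 36 of 1477 others, with intervals that overlap. Among distal peaks it was 31.0% (26.2 to 36.1%) for members and 5.36% (4.24 to 6.76%) for the others, and within 2 kb of a TSS 9.32% (6.60 to 13.0%) and 2.06% (1.57 to 2.69%). The intervals treat peaks as separate draws and cover counting error only, and no test of these differences was made.

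**Figure D4:**
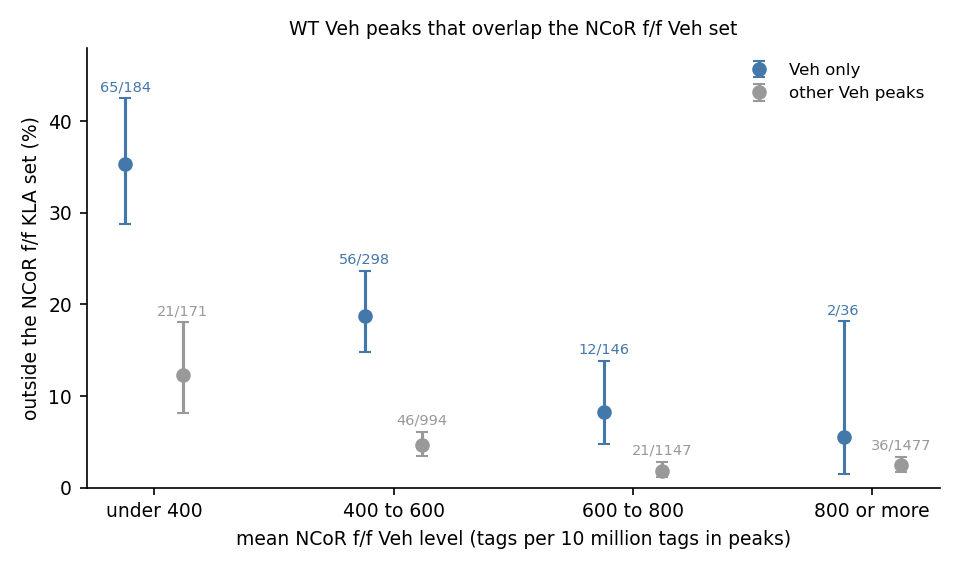
Share of WT Veh peaks in the NCoR f/f Veh set that were outside the NCoR f/f KLA set, in percent, by mean NCoR f/f level in tags per 10000000 tags in peaks, for the Veh-only peaks and the other peaks of the WT Veh set, with 95% Wilson intervals and the counts. The share was higher for the Veh-only peaks in the 3 lower bins, with intervals that do not overlap, and 2 of 36 against 36 of 1477 in the highest.

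The 135 members outside the NCoR f/f KLA set were mostly distal, with 22.4% of them within 2 kb of a TSS against 55.7% of the 529 in both sets. Their median WT log2 fold change was -1.17 for KLA and -1.17 for RGFP966 + KLA against Veh, against -0.75 and -0.90. The examples that follow were chosen after their values were seen, as those with the highest NCoR f/f level and those called lower in both WT comparisons. Zfp36l2, an RNA-binding protein that promotes mRNA decay, had 15 and 11 tags at Veh, 5 and 0 at KLA, and 2 and 6 at RGFP966 + KLA at its promoter (chr17:84187798-84188007), and NCoR f/f Veh levels of 859 and 745. Ahnak, a large scaffold protein, had 11 and 12, 0 and 3, and 7 and 6 tags in an intron. At both, every treated library lay below both Veh libraries.

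Dusp6, a phosphatase of ERK, had 11 and 13 tags at Veh, 5 and 4 at KLA, and 8 and 6 at RGFP966 + KLA at a peak 5719 bp from its TSS (chr10:99268842-99269059), which held both a PU.1 and a C/EBP match. Rgs10, a regulator of G protein signaling in myeloid cells, had 10 and 8, 4 and 0, and 4 and 1 tags in an intron. Axl, Vsir and 2 of the Arhgap25 peaks, described above, were also among them. Bcl2l11, which encodes the apoptosis factor BIM, had 14 and 12, 9 and 9, and 11 and 15 tags at its promoter and was called in neither comparison, as was Spsb3, with 13 and 14, 13 and 8, and 7 and 19.

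Motif matches were counted in the 792 members on chromosomes 1 to 19, X and Y, and 67.9% held at least 1 of the 12. Within 2 kb of a TSS, SP/KLF boxes were in 65.4% (60.5 to 70.1%) of members and 68.3% (67.0 to 69.6%) of all merged peaks. The ETS site CCGGAAGT was in 5.59% and 6.95%, and the NRF1 site GCGCATGC in 2.39% (1.26 to 4.49%) and 5.28% (4.69 to 5.94%), with intervals that do not overlap for NRF1. In windows of 100 bp the NRF1 intervals overlap (0.733 to 3.44% and 2.89 to 3.91%).

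Away from TSSs, AP-1 matches were in 18.3% (14.9 to 22.3%) of members and 28.3% (27.0 to 29.6%) of all merged peaks, and NFkB-p65 matches in 1.92% (0.978 to 3.75%) and 6.10% (5.45 to 6.83%). Neither pair of intervals overlaps, in these windows, in windows of 100 bp or over whole peaks. PU.1 matches were in 13.7% (10.7 to 17.3%) and 12.1% (11.2 to 13.0%), C/EBP in 14.7% and 16.3%, and the RUNX site TGTGGTT in 13.9% (10.9 to 17.6%) and 10.5% (9.62 to 11.4%). IRF matches were in 1.92% and 3.59%. All merged peaks include the members and the peaks found only with treatment. A match is a string of letters and not a measure of binding, and no test of the shares was made. Without a split by position, AP-1 matches were in 10.98% (8.99 to 13.4%) of members. They were in 8.995% (7.97 to 10.1%) of peaks in all 3 sets, 17.4% of KLA-only and 22.7% of RGFP966 + KLA-only peaks. NFkB-p65 matches were in 2.15% (1.34 to 3.41%), 3.46% (2.83 to 4.23%), 6.2% and 6.19% in the same order. Distal members were not compared with distal peaks of the other classes.

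**Figure D5:**
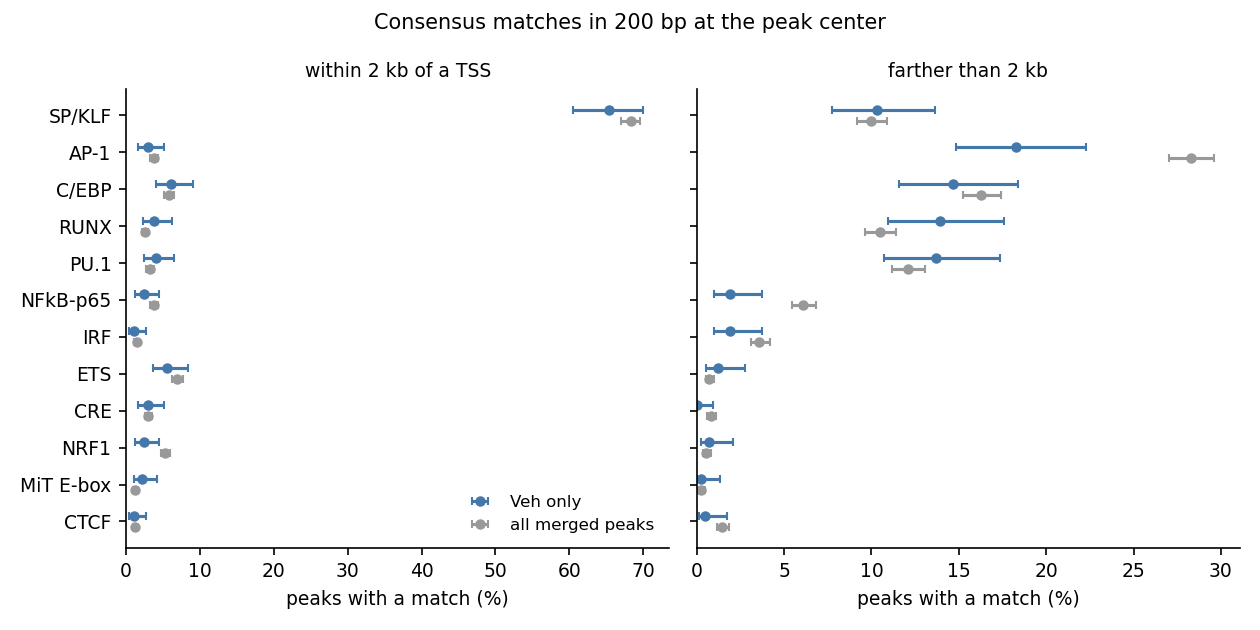
Share of peaks with a consensus match in 200 bp at the center, in percent with 95% Wilson intervals, for Veh-only peaks and all merged peaks within 2 kb of a TSS (left) and farther away (right), on axes of different length. The points lie apart for AP-1 (18.3% and 28.3%) and NFkB-p65 (1.92% and 6.10%) away from TSSs and for NRF1 (2.39% and 5.28%) near them, where the intervals overlap in windows of 100 bp. All merged peaks include the peaks found only with treatment.

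The members called lower for KLA held RUNX matches in 16.2% (10.2 to 24.7%) and PU.1 matches in 9.09% (4.86 to 16.4%), while over all members both were in 9.09% (7.28 to 11.3%). Among the 5 members with the lowest KLA values, Vsir and 1110034G24Rik held a RUNX match and St6gal1 a PU.1 match. These subsets were chosen by the measured tags and their shares are descriptions. The 2 RUNX intervals overlap. Of the 99 members called lower for KLA, 62 were distal. RUNX matches were in 13.9% of distal members and 3.72% of those near TSSs.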

How the data were processed

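Per the labels and the study's methods, the authors mapped ATAC-seq reads to mm10 with Bowtie2, called HOMER peaks, kept IDR peaks of 2 libraries per condition, merged them and deposited raw tag counts per merged peak and library, with at most 3 tags at a position and no adjustment for depth. Sets, genes and TSS distances are those of the deposited tables, and 0 columns of other samples were present. The members, gene lists and tests were chosen with earlier results of these data known.

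Counts were fitted with edgeR 4.0.16 (glmQLFTest, R 4.3.3) on the WT peaks that reached 4 tags in some library (all 9698), in 1 model of 6 libraries without covariates, with tags in peaks as library size. The SE of a log2 fold change is approximate. It was derived as the absolute log2 fold change divided by the square root of the F statistic of the edgeR test. The fit was also run on counts simulated with the spread estimated from these data. DESeq2 1.42.0 with its own size factors was an alternative. Other alternatives are TMM factors, library sizes from all tags, no filter or 16 tags, a replicate block, each library left out, a fold of 1.5, 1 kb around TSSs, 50% overlap and other motif windows. Library sizes from all tags for the library comparisons and the 50% overlap for the NCoR f/f KLA set were added after the data were seen. Depth was 116733 to 202523 tags per WT library. Intervals of shares (Wilson) and of tag ratios (exact, conditional on the sum) are at 95% confidence and cover counting error only. Adjusted p-values are Benjamini-Hochberg values.

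Named members are the 10 with the highest Veh level, the 5 lowest and 5 highest for KLA against Veh among those with a mean of 12 tags or more at Veh, up to 3 per gene list by Veh level, and the members whose sequences are shown. Other members of the lists, the genes with 3 members, the peak called for RGFP966 + KLA against KLA and the members outside the NCoR f/f KLA set were added after their values were seen. Motifs were counted on both strands of mm10 (GRCm38.p6) as PU.1 GAGGAAGT, C/EBP TTGCNNAA, AP-1 TGACTCA, ETS CCGGAAGT, RUNX TGTGGTT, MiT E-box TCACGTGA, CRE TGACGTCA, SP/KLF GGGCGG and NRF1 GCGCATGC, and NFkB-p65, IRF and CTCF by their consensus. Matches may share bases. No sequence is shown for chromosome 18 or for windows with an exon, so the next highest CTCF member is shown. The sequence of 1 distal member is not reported here. Figures were drawn with matplotlib 3.10.9, and intervals came from scipy 1.17.1 (Python 3.11.15, pandas 2.3.3).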

Additional observations from a re-analysis of the deposited data

How the results depend on the processing

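Of 149 values computed under alternatives, 112 were labelled the same, 36 moved and 1 changed sign. The label "the same" does not mean equal. It covers a count of 99 that became 76 or 115, a count of 205 that became 240, and counts of 0 under every setting. The median log2 fold change of the members for RGFP966 + KLA against KLA turned from -0.11 to 0.061 with library sizes from all tags, which moved the median of all merged peaks from 0.03 to 0.21. The medians for KLA and for RGFP966 + KLA against Veh kept their sign under every scaling, DESeq2, the block and each library left out. Counts of members called lower depended on the settings. DESeq2 was run with its own size factors, so test and scaling changed together. For KLA against Veh the count of 99 became 0 with DESeq2, 42 with a filter of 16 tags, which tests 338 of the members, and 30 to 78 with 1 library left out. For RGFP966 + KLA against Veh the count of 205 became 0 with DESeq2, 106 with library sizes from all tags, 71 with the filter of 16 tags and 61 to 217 with 1 library left out. For RGFP966 + KLA against KLA the count of 1 became 0 with DESeq2, 2 with only the 4 libraries compared and 0 to 2 with 1 library left out. Deviations of libraries with the same replicate number had correlations of -0.002, 0.006 and 0.026. At so few tags per peak these values cannot show whether the samples were paired. With the replicate number as a block the counts were 115, 221 and 2. The cause of these moves was not tested, other than the smaller number of peaks or samples by construction. An overlap of 50% of both peaks left 83.2% of members over an NCoR f/f peak and 72.0% over its Veh set. Within 1 kb of a TSS lay 42.9% of members. The median NCoR f/f Veh level of 449 was 454 over members with an overlapping peak and 451 to 457 with 1 library left out. At least 1 motif match was in 73.4% of whole peaks and in 48.99% of windows of 100 bp. The 602 members with both Veh libraries above both KLA libraries became 579 with library sizes from all tags, and the 543 above all 4 treated libraries became 460. The NRF1 intervals near TSSs overlap in windows of 100 bp. At a median of 6 to 12 tags per member and library, depth limits each peak's value.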
